A study of Mus musculus with 24 samples.

Results

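The regions described here are the differentially 5-hydroxymethylated windows (DhMRs) of mouse chromosome 6, which make up 1136 of the 20726 windows in the 2 deposited lists. They were selected on their chromosome alone, and the chromosome was chosen by the direction of its windows: 1000 were higher in AA10 and 136 were higher in Wt25. These numbers are therefore a description, and no test was made on them. Wt25 and AA10 are single lines of mouse embryonic stem cells (ESCs) of mixed C57BL/6J-129V background, grown in 2i medium with LIF. Both lines lack their own *Tet1*, *Tet2* and *Tet3* and carry a lentiviral, Flag-tagged human Tet3, which is wild type in Wt25 and has its cdk5 target serines replaced by alanine in AA10. Each line was profiled with 3 libraries of DNA precipitated with an antibody against 5-hydroxymethylcytosine (5hmC-DIP). As each form of Tet3 is represented by 1 line, a difference between forms and a difference between lines cannot be told apart.

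Tet enzymes oxidise 5-methylcytosine, the methylated base of CpG dinucleotides, to 5-hydroxymethylcytosine (5hmC), an intermediate of DNA demethylation that also persists as a mark of its own. In ESCs, 5hmC is found in gene bodies, at enhancers and near promoters of moderate CpG content, and strongly CpG-rich promoters usually carry little of it. Mouse chromosome 6 carries the HoxA cluster, the *Nanog* locus, *Tet3*, the forkhead genes *Foxp1* and *Foxp2*, very long neuronal genes such as *Cntnap2* and *Ctnna2*, and large families of vomeronasal, taste and natural killer cell receptors.

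A window is 1 bin of 200 bp in which the reads of the 3 Wt25 and 3 AA10 libraries differed in the authors' comparison. Their limits were a *P*-value under 0.05, a fold change of at least 1 and a minimal number of reads. The study's methods name no correction of this *P*-value for the number of bins compared, so single windows may include false calls. The lists hold only positions and, for most windows, a gene, so a window has no read count, fold change or replicate spread, and windows cannot be ranked by size of change. Shares are printed with Wilson intervals at the 95% level, which reflect how many windows were counted and nothing else. Coordinates and sequences are of GRCm38.

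The following sequences of single windows, read on the plus strand from 5′ to 3′ with CpG dinucleotides in capitals, show the kinds of DNA behind the 2 directions. The first pair lie at the *Foxp1* sites that the study followed by PCR, and both windows were higher in AA10. L1 is intergenic and L2 is in an intron of *Foxp1*, and they hold 2 and 3 CpGs.
Foxp1 L1 (chr6:98801403-98801600): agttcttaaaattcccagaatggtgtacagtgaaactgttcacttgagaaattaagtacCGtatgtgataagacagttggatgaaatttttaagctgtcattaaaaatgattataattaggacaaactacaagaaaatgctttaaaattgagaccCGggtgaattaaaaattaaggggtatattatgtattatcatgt
Foxp1 L2 (chr6:99099803-99100000): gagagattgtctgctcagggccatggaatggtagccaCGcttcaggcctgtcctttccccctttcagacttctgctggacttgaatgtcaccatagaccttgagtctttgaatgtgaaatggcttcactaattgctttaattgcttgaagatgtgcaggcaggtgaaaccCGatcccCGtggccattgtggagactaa
The next pair are the windows with most CpGs of each direction outside marked repeats and UTRs. The AA10 window lies in the promoter of the non-coding gene *6530409C15Rik* and holds 17 CpGs, and the Wt25 window is intergenic and holds 14.
CpG-rich, higher in AA10 (chr6:28215203-28215400): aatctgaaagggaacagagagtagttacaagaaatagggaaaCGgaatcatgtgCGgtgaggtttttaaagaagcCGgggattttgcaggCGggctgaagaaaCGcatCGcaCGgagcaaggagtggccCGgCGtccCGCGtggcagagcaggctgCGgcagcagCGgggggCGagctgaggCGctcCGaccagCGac
CpG-rich, higher in Wt25 (chr6:51168803-51169000): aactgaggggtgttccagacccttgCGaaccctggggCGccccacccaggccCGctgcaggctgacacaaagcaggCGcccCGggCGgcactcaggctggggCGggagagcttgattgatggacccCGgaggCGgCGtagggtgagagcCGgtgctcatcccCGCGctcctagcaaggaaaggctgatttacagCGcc
The windows of 3 neuronal genes were all intronic. The *Foxp2* and *Cntnap2* windows were higher in AA10 and the *Ctnna2* window was higher in Wt25. They hold 1, 2 and 7 CpGs in that order, and the *Cntnap2* window holds an unbroken run of 91 bases with the repeating unit gaa.
Foxp2 (chr6:15023603-15023800): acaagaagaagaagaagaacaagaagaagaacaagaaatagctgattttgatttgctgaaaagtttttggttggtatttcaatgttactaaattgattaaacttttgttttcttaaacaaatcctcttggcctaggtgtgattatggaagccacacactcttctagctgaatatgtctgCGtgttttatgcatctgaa
Cntnap2 (chr6:46119403-46119600): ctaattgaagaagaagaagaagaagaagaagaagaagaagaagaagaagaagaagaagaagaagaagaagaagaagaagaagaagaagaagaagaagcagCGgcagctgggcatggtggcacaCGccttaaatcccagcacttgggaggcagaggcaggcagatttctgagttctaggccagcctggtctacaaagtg
Ctnna2 (chr6:77222203-77222400): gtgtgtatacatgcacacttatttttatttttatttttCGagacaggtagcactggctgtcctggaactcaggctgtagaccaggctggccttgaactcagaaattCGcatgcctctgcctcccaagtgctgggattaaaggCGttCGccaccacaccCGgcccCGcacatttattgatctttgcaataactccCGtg
The last 5 hold the most CpGs outside UTRs, or tie for the most, at loci where windows gathered, and they were chosen after the positions had been seen. At the first 4 loci all windows were of AA10, while *Creb3l2* held 3 Wt25 windows and 1 AA10 window. The first 4 were higher in AA10, with 6, 4, 15 and 7 CpGs, and the *Creb3l2* window was higher in Wt25, with 5.
Nrf1 intron (chr6:30099203-30099400): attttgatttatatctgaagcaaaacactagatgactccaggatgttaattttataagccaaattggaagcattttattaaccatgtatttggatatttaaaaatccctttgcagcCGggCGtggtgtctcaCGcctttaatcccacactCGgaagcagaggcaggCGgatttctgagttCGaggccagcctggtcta
Hk2 intron (chr6:82764403-82764600): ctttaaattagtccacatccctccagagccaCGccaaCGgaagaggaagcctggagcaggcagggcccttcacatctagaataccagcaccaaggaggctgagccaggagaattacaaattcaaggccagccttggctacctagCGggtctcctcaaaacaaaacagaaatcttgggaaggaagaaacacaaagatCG
HoxA cluster (chr6:52168603-52168800): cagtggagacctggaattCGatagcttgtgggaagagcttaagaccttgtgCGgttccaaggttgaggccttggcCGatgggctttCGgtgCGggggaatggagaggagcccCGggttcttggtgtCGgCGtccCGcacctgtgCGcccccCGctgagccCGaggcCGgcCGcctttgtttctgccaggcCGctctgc
upstream of Nanog (chr6:122670403-122670600): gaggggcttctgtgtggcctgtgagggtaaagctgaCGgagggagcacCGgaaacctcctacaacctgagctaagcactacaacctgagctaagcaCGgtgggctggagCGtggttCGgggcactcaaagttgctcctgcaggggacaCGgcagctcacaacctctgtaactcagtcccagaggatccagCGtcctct
Creb3l2 intron (chr6:37376003-37376200): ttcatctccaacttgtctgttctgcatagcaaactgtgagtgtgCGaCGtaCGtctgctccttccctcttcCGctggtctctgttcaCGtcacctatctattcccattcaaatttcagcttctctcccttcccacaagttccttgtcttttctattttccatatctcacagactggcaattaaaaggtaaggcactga

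Compared with the rest of the genome, chromosome 6 stood out for its direction and not for its total number of windows. It held 7.59 windows of both directions per Mb, which placed it at rank 12 of the 20 chromosomes 1 to 19 and X, where the other 19 ranged from 1.00 on X to 12.8 on chromosome 13 with a median of 8.38. Windows higher in AA10 occurred at 6.68 per Mb, against a median of 2.93 elsewhere, and only chromosome 13 was denser with 6.93. Windows higher in Wt25 occurred at 0.908 per Mb, against a median of 5.00 elsewhere, and only X was sparser with 0.520. AA10 windows made up 88.0% of the windows of chromosome 6 (interval 86.0% to 89.8%), while this share lay between 18.6% on chromosome 19 and 58.8% on chromosome 12 for the others, with a median of 36.2%.

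**Figure D1:**
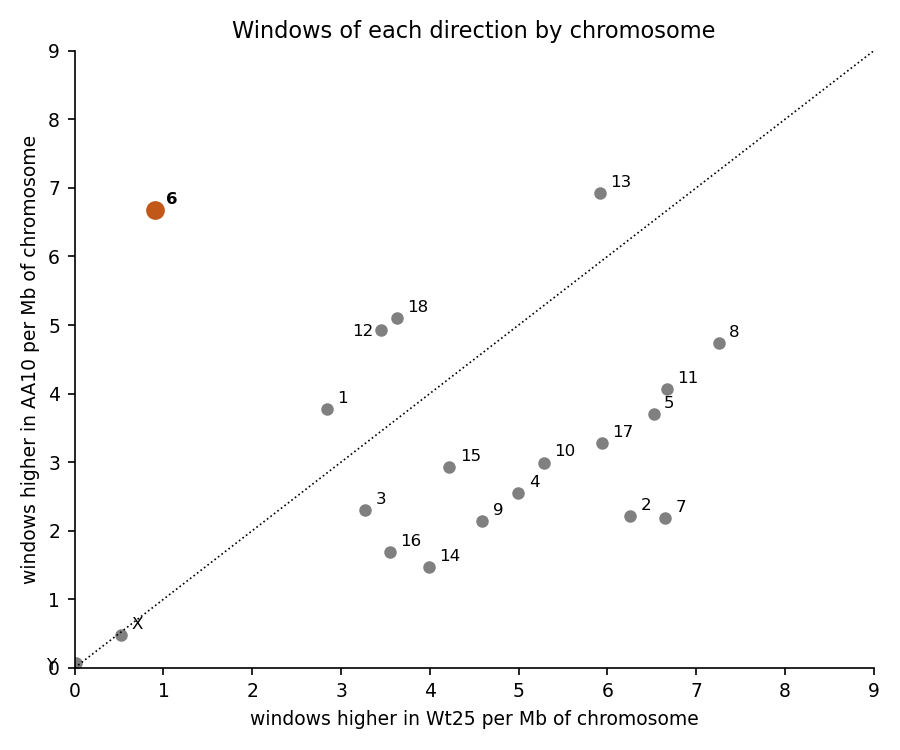
Density of windows by chromosome, with windows higher in Wt25 per Mb on the x axis, windows higher in AA10 per Mb on the y axis, 1 point per chromosome and a dotted line where both are equal. Chromosome 19, with 9.62 Wt25 and 2.20 AA10 windows per Mb, lies beyond the end of the x axis and is not shown. Chromosome 6 (orange) lies at 0.908 on the x axis and 6.68 on the y axis, above the line and apart from the other chromosomes.

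On several other chromosomes AA10 windows came in dense runs, defined as at least 20 consecutive windows of 1 direction with gaps of at most 10 kb. Such runs held 1731 of the 7630 AA10 windows of the other chromosomes (22.7%). On chromosome 6 they held 26 of 1000 (2.6%), all in a single run inside *Nrf1*. Leaving this run out gave an AA10 share of 87.7%, and counting windows joined within 1 kb as 1 region gave 856 AA10 and 125 Wt25 regions, a share of 87.3%. The share of AA10 windows thus moved by less than 1 percentage point. The copy number of chromosome 6 in the 2 lines was not tested, because the libraries of input DNA were not analysed here.

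The AA10 excess ran along the whole chromosome. In each of its 15 segments of 10 Mb, AA10 windows outnumbered Wt25 windows, and their share lay between 74.4% and 97.2%. The fullest were segment 4 with 181 AA10 and 19 Wt25 windows, segment 9 with 137 and 4, and segment 13 with 101 and 12. The segment with fewest AA10 windows was segment 5 with 29 and 10. Across the 15 segments, the number of AA10 windows had a Pearson correlation of 0.56 with the number of CpGs (Spearman 0.52) and of 0.39 with the number of coding genes (Spearman 0.43). For Wt25 windows the correlation with CpGs was 0.24 (Spearman 0.20), and AA10 with Wt25 windows gave 0.35 (Spearman 0.23). These are descriptions over neighbouring segments of 1 chromosome, which share base composition and gene density.

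**Figure D2:**
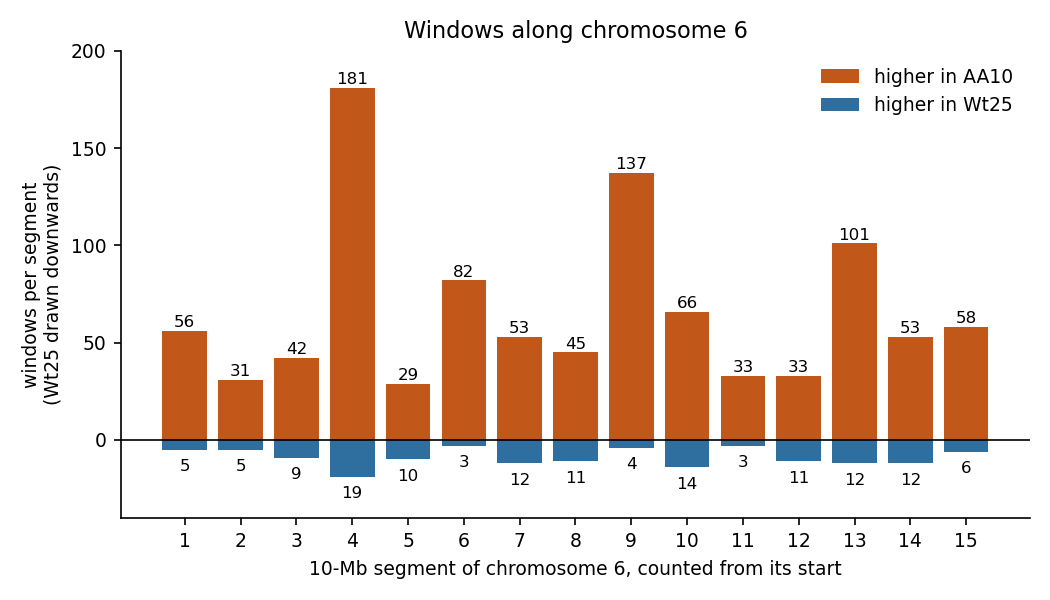
Windows in each 10-Mb segment of chromosome 6, with the segment number counted from the start of the chromosome on the x axis and the number of windows on the y axis, AA10 upwards and Wt25 downwards. AA10 windows outnumber Wt25 windows in each of the 15 segments, from 29 against 10 in segment 5 to 181 against 19 in segment 4.

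At a finer scale, 130 of 150 segments of 1 Mb held an AA10 window and 65 held a Wt25 window. AA10 windows were in the majority in 122 segments and Wt25 windows in 8, and 4 segments held Wt25 windows alone. The 10 fullest segments held 265 AA10 windows (26.5%), so most of the excess was spread over the rest of the chromosome, where the median over all segments was 4. The fullest was the megabase with *Nrf1* and *Ube2h*, which held 44 AA10 and 2 Wt25 windows. Its neighbour with *Mkln1* and *Podxl* held 40 and 1. The megabase with the HoxA genes, *Skap2* and *Jazf1* held 26 AA10 windows and no Wt25 window, and that with *Hk2*, *Eva1a* and *Pole4* held 23 and none.

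The median distance between neighbouring AA10 windows was 30.6 kb, and 31.7% of such gaps were at most 10 kb. Between neighbouring Wt25 windows the median was 353 kb. A Wt25 window had its nearest AA10 window at a median of 76.6 kb, and 25 of the 136 lay within 10 kb of one. Seen from AA10 windows, the nearest Wt25 window was at a median of 453.8 kb. With 1000 windows of 1 kind and 136 of the other, such distances cannot be compared as placement alone.

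The next question was whether the DNA under the AA10 windows of chromosome 6 differed from that under AA10 windows elsewhere. These properties were not used to choose the windows. Windows of 1 list within 1 kb were joined, giving 856 AA10 regions on chromosome 6 and 5553 on the other chromosomes, and each region took the feature at its midpoint in RefSeq transcripts and the CpG number and repeat mark of its first window. Each of 10 properties was tested by Fisher's exact test (two-sided), and the *P*-values were adjusted over the 10 by the method of Benjamini and Hochberg. None passed the threshold of 0.05, and none had an unadjusted *P*-value under 0.05. Introns held 46.5% of the AA10 regions of chromosome 6 and 45.8% of those elsewhere (odds ratio 1.03, 95% interval 0.888 to 1.19, exact test, adjusted *P*-value = 0.891). Intergenic DNA held 43.5% in both (odds ratio 0.999, interval 0.862 to 1.16, exact test, adjusted *P*-value = 1). For both features the interval reached less than 20% to either side of equal odds.

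Promoters, here the 1 kb before and the 100 bp after a start site, held 4.44% of the AA10 regions of chromosome 6 and 3.39% of the others (odds ratio 1.33, interval 0.903 to 1.90, exact test, adjusted *P*-value = 0.470). Regions with 5 or more CpGs were 19.6% against 21.9%, and regions whose first window had a repeat-marked midpoint were 27.7% against 29.4%. When the same exact test counted each window by itself, promoter (odds ratio 1.57, adjusted *P*-value = 0.0202), intron (1.27, 0.00204), intergenic (0.773, 0.00161) and repeat-marked windows (0.774, 0.00204) passed the threshold. Neighbouring windows are not independent, and the clustered windows of other chromosomes each enter that count many times.

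The 136 Wt25 windows of chromosome 6 formed 125 regions, which were set against 9457 Wt25 regions of other chromosomes. Of 10 properties, 0 passed the threshold by Fisher's exact tests with adjustment and 1 had an unadjusted *P*-value under 0.05. Repeat-marked midpoints made up 37.6% on chromosome 6 and 28.9% elsewhere (odds ratio 1.49, interval 1.01 to 2.17, exact test, *P* = 0.0369, adjusted *P*-value = 0.282). Intergenic regions made up 52.0% and 43.3% (odds ratio 1.42, interval 0.981 to 2.05, exact test, adjusted *P*-value = 0.282). Within chromosome 6, the lowest *P*-value between AA10 and Wt25 regions was for the same property, with 27.7% and 37.6% repeat-marked midpoints (odds ratio 0.635, interval 0.423 to 0.963, exact test, unadjusted *P* = 0.0265, adjusted *P*-value = 0.265). No property passed the threshold between the directions after adjustment, and 1 had an unadjusted *P*-value under 0.05.

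**Figure D3:**
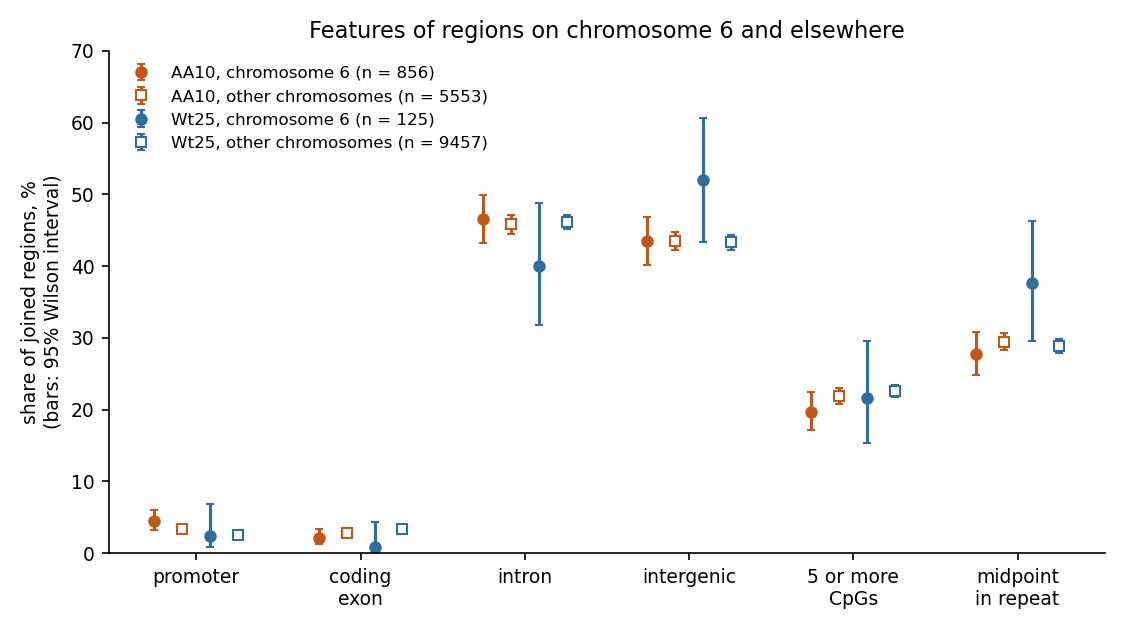
Share of joined regions in 6 properties on the y axis in percent, for AA10 (orange) and Wt25 (blue) regions on chromosome 6 (filled circles) and on the other chromosomes (open squares), with bars for 95% Wilson intervals. The AA10 points for intron (46.5% and 45.8%) and intergenic DNA (43.5% for both) almost coincide, and the wider bars belong to the 125 Wt25 regions of chromosome 6.

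CpG content and position are given as a description. A window held 3.15 ± 2.34 CpGs (mean ± SD over 1000 AA10 windows of chromosome 6) or 3.28 ± 2.54 (136 Wt25 windows), and the corresponding values elsewhere were 3.16 ± 2.36 and 3.25 ± 2.52. The median distance to a transcription start site was 22.7 kb for AA10 and 25.2 kb for Wt25 windows of chromosome 6, and 22.5 and 20.8 kb elsewhere. Perfect tandem repeats with units of 1 to 6 bases and at least 24 bases long, of the kind printed for *Cntnap2*, were present in 56 AA10 (5.6%) and 9 Wt25 windows (6.62%) of chromosome 6, and in 4.04% and 5.60% of the windows elsewhere.

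Genes came next. Of 1112 protein-coding genes on chromosome 6, 252 (22.7%) had an AA10 window inside and 47 (4.23%) had a Wt25 window. On other chromosomes the order was the opposite, with AA10 windows in 1937 of 20826 coding genes (9.3%) and Wt25 windows in 2861 (13.7%). These shares follow from the counts that chose the chromosome, and they are the background against which the gene groups below are read. In total, 521 AA10 windows (52.1%) and 60 Wt25 windows (44.1%) lay inside coding genes. Windows of AA10 alone were found in 231 genes, of Wt25 alone in 26 and of both in 21. In the gene column of the deposited lists, 416 genes were given to AA10 and 89 to Wt25 windows, and the 44 in common were 49.4% of the Wt25 genes and 10.6% of the AA10 genes.

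Genes with AA10 windows were long on chromosome 6 and elsewhere, with a median of 72.3 kb where all coding genes of the chromosome had 18.5 kb, and of 58.2 kb elsewhere where all had 17.4 kb. Genes of at least 100 kb made up 97 of the 252 coding genes with AA10 windows (38.5%), against 654 of 1937 elsewhere (33.8%), an odds ratio of 1.23 (interval 0.926 to 1.62, two-sided Fisher's exact test, *P* = 0.139). Among all coding genes, with or without windows, such long genes were 13.2% on chromosome 6 and 11.3% elsewhere (exact test, *P* = 0.0468). Per length, however, the longest genes were the poorest. AA10 windows inside genes occurred at 11.2 per Mb in genes under 10 kb, at 12.9 from 10 to 50 kb, at 10.3 from 50 to 100 kb, at 11.2 from 100 to 300 kb and at 3.81 in the 40 genes of 300 kb and over. The genes of other chromosomes had the same order at the long end, with 3.19 per Mb from 100 to 300 kb and 1.42 from 300 kb.

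*Nrf1*, which encodes a transcription factor of mitochondrial genes that binds a CpG-containing site, had most windows. It held 30 AA10 windows and no Wt25 window in 105 kb, which is 28.4 per 100 kb and 3% of the AA10 windows of the chromosome. Of these, 26 were in introns, 2 in 5′ UTRs, 1 in an internal promoter and 1 in another feature. The dense run of 26 windows spanned 45.6 kb, from 20.9 to 66.3 kb downstream of the gene's start. The windows of the gene were poor in CpG, with 1.87 ± 1.41 (SD, 30 windows) and a range of 0 to 6, and the printed one is the richest of the run.

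Next in number were *Dysf* and *Magi1*, with 14 AA10 windows each. *Dysf* encodes dysferlin, a membrane-repair protein of muscle, and its 14 intronic windows all lay between 3.91 and 72.9 kb from the start of a gene of 202 kb. *Magi1*, a scaffold protein of cell junctions, held 14 AA10 windows in introns along 608 kb and 1 Wt25 window, which lay among 3 of them near the gene's end. *Snd1*, a nuclease and coactivator, held 10 windows. *Aak1*, a kinase of clathrin coats, *Atf7ip*, a partner of the H3K9 methyltransferase SETDB1, *Podxl*, a sialomucin of pluripotent and epithelial cells, and *Trim24*, a chromatin reader, held 8 each, and *Trim24* also 1 Wt25 window.

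After *Nrf1*, the highest densities among the genes with at least 6 AA10 windows were in genes under 50 kb. *Podxl* had 18.0 AA10 windows per 100 kb, *Immt*, which shapes mitochondrial cristae, 15.2 with 7 windows, and *Hk2*, the hexokinase that starts glycolysis, 12.1 with 6 windows. The windows of *Podxl* held 3 to 11 CpGs, with 11 in the one 0.88 kb from its start. *Atf7ip* held a pair of adjoining windows with 10 and 9 CpGs at 13.1 and 13.3 kb from its start. *Exoc4*, of the exocyst, and *Sox5*, a transcription factor of neural and cartilage development, held 7 windows each in 725 and 954 kb, which is 0.966 and 0.734 per 100 kb, and *Exoc4* also held 1 Wt25 window. The genes *Umad1* and *Gm45062* overlap and hold the same 5 windows, and *Gm28308*, also with 5, shares windows with the HoxA genes it overlaps.

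**Figure D4:**
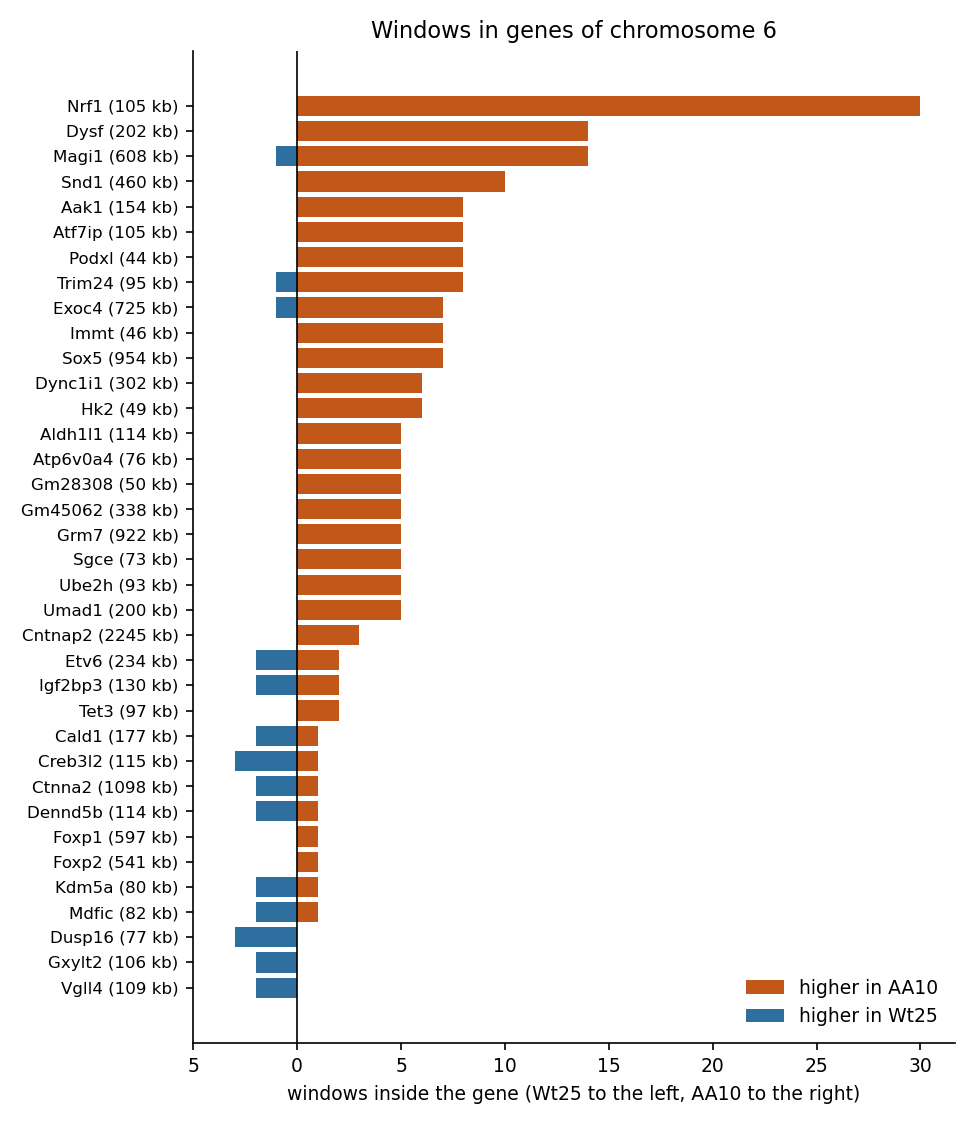
Number of windows inside coding genes of chromosome 6 with at least 5 AA10 or at least 2 Wt25 windows, and Foxp1, Foxp2, Cntnap2, Ctnna2 and Tet3, with AA10 to the right, Wt25 to the left and the gene length in brackets. Nrf1 has 30 AA10 windows, Dysf and Magi1 have 14, and no gene has more than 3 Wt25 windows.

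*Foxp1*, *Foxp2*, *Cntnap2* and *Ctnna2* held few windows for their length. Other long members of the neuronal lists below varied: *Magi1* held 14 AA10 windows in 608 kb and *Grm7* 5 in 922 kb, while *Cntn3* and *Lrrtm4* held none inside. *Foxp1* and *Foxp2* encode forkhead repressors of brain, immune and lung development. Each had 1 AA10 window in an intron, in 597 and 541 kb. Genes of 300 kb and over held 3.81 AA10 windows per Mb on chromosome 6 and 1.42 elsewhere, and the whole chromosome had 6.68. The deposited lists gave *Foxp1* 4 AA10 windows, because 3 windows 28.2, 35.6 and 124 kb past its end, the L1 sequence among them, were given to it as well. *Cntnap2*, a neurexin-like adhesion protein of axons, had 3 AA10 windows in 2245 kb, at 47.2%, 98.7% and 99.0% of its length.

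*Ctnna2*, which encodes the alpha-catenin of neurons that links cadherins to actin, had windows of both directions in its 1098 kb. The 2 Wt25 windows lay at 36.2% and 69.0% of its length and the AA10 window at 90.4%, all in introns. Relatives of these genes elsewhere are given side by side, chosen after the chromosome 6 genes had been seen. *Foxp3* and *Foxp4* had no window of either direction. *Ctnna3* on chromosome 10 held 33 AA10 windows and no Wt25 window in 1574 kb, which is 2.10 per 100 kb, against 0.0911 in *Ctnna2*. Among the relatives of *Cntnap2*, *Cntnap4* had 1 AA10 window, *Cntnap1* 2 Wt25 windows, *Cntnap3* and *Cntnap5c* 1 Wt25 window each, and *Cntnap5a* and *Cntnap5b*, of 903 and 713 kb, had none.

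Other families are given in the same way. *Magi1* had 14 AA10 windows, while its paralogue *Magi2* on chromosome 5 had 10 Wt25 windows and no AA10 window, and *Magi3* on chromosome 3 had 1 AA10 window. *Sox5* had 7 AA10 windows and *Sox6* on chromosome 7 had 1 Wt25 window. *Hk2* had 6 AA10 windows, *Hk1* on chromosome 10 had 1 Wt25 window, and *Hk3* had none. *Itpr1* and *Itpr2*, calcium channels of the endoplasmic reticulum that both lie on chromosome 6, had 3 AA10 windows each and *Itpr1* also 1 Wt25 window, and *Itpr3* on chromosome 17 had 1 Wt25 window. Chromosomes 3, 5, 7, 10 and 17, where these paralogues lie, held more Wt25 than AA10 windows in all, and no test was made on these counts.

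**Figure D5:**
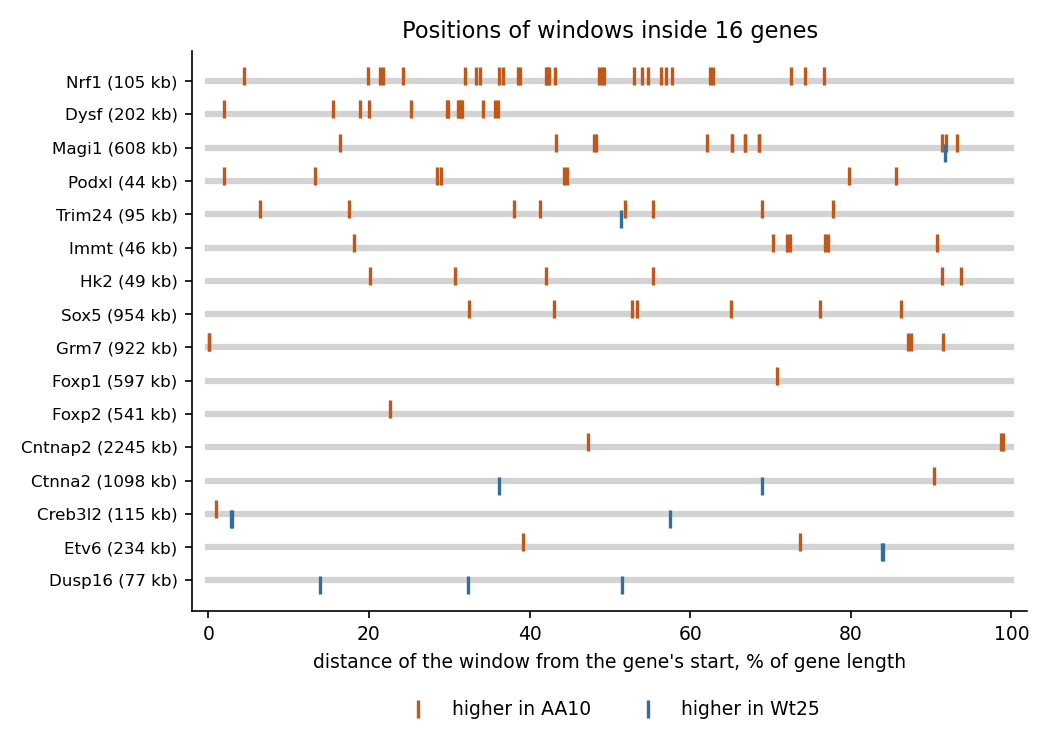
Positions of windows inside 16 genes of chromosome 6, drawn as a percentage of the gene length from the gene's start on the x axis, with AA10 windows in orange above each gene's line, Wt25 windows in blue below it and the gene length in brackets. Nrf1 windows fill the middle of the gene, Dysf windows lie in its first part, and Foxp1 and Foxp2 have 1 window each.

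Gene groups were counted by lists chosen with earlier results of these data known, and the counts are read against the 22.7% of all coding genes of the chromosome with an AA10 window and the 4.23% with a Wt25 window. Of 11 synaptic and neuronal adhesion genes, 4 had AA10 windows (*Magi1*, *Cntnap2*, *Ctnna2* and *Cntn4*) and 2 had Wt25 windows (*Magi1* and *Ctnna2*). Of 5 neurotransmitter receptor genes, *Grm7* had 5 AA10 windows and *Grin2b* had 1. Of 9 channel genes, 3 had AA10 windows (*Itpr1*, *Itpr2* and *Cacna1c*), and of 7 axon guidance genes, 4 had 1 AA10 window each (*Plxna4*, *Plxna1*, *Ephb6* and *Srgap3*). Many of these genes are long. *Cntn3*, *Cntn6*, *Lrrtm4*, *Grm8* and *Kcnd2*, of 410, 371, 791, 860 and 514 kb, had no window of either direction inside. The deposited lists gave *Cntn3*, *Cntn6*, *Lrrtm4* and *Kcnd2* 1 AA10 window each.

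The members of the same lists on other chromosomes are given beside them. There, AA10 windows lay in 13 of 53 adhesion genes (24.5%), 9 of 87 receptor genes (10.3%), 21 of 135 channel genes (15.6%) and 11 of 66 axon guidance genes (16.7%), where 9.3% of all coding genes had one. Wt25 windows lay in 20, 13, 18 and 20 of them, where 13.7% of all coding genes had one. With 5 to 11 members a list on chromosome 6, a count shifts by much with 1 gene.

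The HoxA cluster, which specifies position along the body axis and is held silent by Polycomb in ESCs, was a place of AA10 windows. Between the first and last Hox gene, in 105 kb, there were 15 AA10 windows and no Wt25 window, which is 14.2 AA10 windows per 100 kb. HoxC on chromosome 15 had 6 AA10 and 2 Wt25 windows in 116 kb, HoxD on chromosome 2 had 2 and 3 in 96.8 kb, and HoxB on chromosome 11 had 1 and 4 in 174 kb. The chromosomes themselves differ in direction. AA10 windows made up 88.0% of all windows on chromosome 6, 41.0% on 15, 26.1% on 2 and 37.9% on 11, and no test was made between the clusters. The HoxA windows were close to start sites: 5 were in promoters, at *Hoxa7*, *Hoxa10*, *Mir196b* (2 windows) and *Mira*, 2 adjoining ones with 6 and 11 CpGs were in a coding exon of *Hoxa2*, and 1 with 13 CpGs was in the 5′ UTR of *Hoxa9*. The printed window with 15 CpGs lies at a transcript end between the *Hoxa2* and *Hoxa3* genes. Further AA10 promoter windows lay outside the cluster at *Hottip*, the long non-coding RNA next to it, and at *Evx1*.

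At the *Nanog* locus, which encodes a core factor of pluripotency, no window lay inside *Nanog*, *Dppa3* or *Gdf3*. The deposited lists gave *Nanog* 8 AA10 windows and no Wt25 window, all intergenic and upstream of its start. A block of 3 adjoining windows lay 37.4 to 37.0 kb upstream, with 6, 4 and 7 CpGs, of which the last is printed. Others lay 29.6, 29.4 and 13.4 kb upstream, and a pair with 6 and 4 CpGs lay 2.39 and 2.19 kb upstream, the former mostly in repeat-marked DNA (92.4%). On the other side of *Nanog*, *Slc2a3*, the glucose transporter GLUT3, had 4 AA10 windows.

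*Slc2a3* and *Hk2* were the members with AA10 windows among 6 glycolysis genes of the chromosome, with 4 and 6 windows and no Wt25 window. *Eno2*, *Tpi1*, *Gapdh* and *Ldhb*, which are 3.71 to 17.7 kb long, had no window inside, and the deposited lists gave *Eno2* 1 Wt25 window. The windows of *Hk2* were all intronic, from 9.95 to 46.4 kb from its start, and held 1 to 4 CpGs, and those of *Slc2a3* were largely in repeat-marked DNA, with 100%, 89.9%, 62.6% and 30.8% of their bases marked. The 2 of 6 genes with AA10 windows are 33.3%, where 22.7% of all coding genes of the chromosome had one. Elsewhere, 7 of 15 glycolysis genes had an AA10 window (46.7%) and 3 a Wt25 window (20%). Of all coding genes there, 9.3% and 13.7% had one. The list is short and was chosen with earlier results known, and no test was made.

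*Tet3* itself lies on chromosome 6 and is disrupted in both lines. It held 2 AA10 windows and no Wt25 window, 1 in a coding exon with 5 CpGs and 1 in an intron with 3 CpGs, 55.0 and 48.0 kb from the start of the gene. Of the other transcription factor and signalling lists, *Sox5* and *Etv6*, the members of the Sox and Ets list, had 7 and 2 AA10 windows, and *Etv6* also 2 Wt25 windows. Of 5 forkhead genes, *Foxj2* had 1 Wt25 window, and *Foxm1* and *Foxi3* had no window inside. Of 4 Wnt genes, *Wnt7a* had 1 Wt25 window inside and no other had any inside.

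Few genes of the large receptor families held a window. Among 93 taste and vomeronasal receptor genes, 3 had AA10 windows (3.23%), namely *Vmn1r13*, *Vmn1r30* and *Vmn2r22*. Among 48 natural killer and C-type lectin receptor genes, 4 had AA10 windows (8.33%), namely *Clec2l*, *Clec4d*, *Clec4e* and *Klrb1*. None of the 8 Gimap genes, small GTPases of lymphocytes, had a window, and no Wt25 window lay in any of these 3 families. These genes are short, together 0.868, 0.817 and 0.0559 Mb, so few windows could fall in them: their AA10 windows occurred at 4.61 and 6.12 per Mb in the first 2 families, where the chromosome had 6.68. At 0.908 Wt25 windows per Mb of the chromosome, few of that direction could fall in them either.

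Promoters held windows of both directions. There were 48 AA10 windows in promoters of 42 genes, with a median of 3 CpGs and at most 17, and 3 Wt25 windows, at *Mdfic*, *Tcaf2* and *Dusp16*, with 12, 11 and 7 CpGs, where AA10 windows made up 88.0% of all windows of the chromosome. Between the directions, the share of promoter regions did not pass the threshold (odds ratio 1.89, interval 0.585 to 9.71, exact test, adjusted *P*-value = 0.708). Among the CpG-richest AA10 promoter windows were those of *Aebp2*, a partner of Polycomb complex 2, with 12 and 9 CpGs, and *1700101I11Rik* with 13 and 9. *Adck2* had 2 promoter windows with 6 and 8 CpGs, which continue into its 5′ UTR as a block of 3 windows over 1198 bp. Blocks of at least 3 windows within 1 kb of each other numbered 17 for AA10 and 1 for Wt25. Of the 17, 4 were in *Nrf1*, and others were in *Dysf*, *Immt*, *Clec2l*, *Akr1b10*, *St8sia1* and *Loxl3*.

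The 136 Wt25 windows were thinly spread. Intergenic DNA held 74 of them (54.4%), introns 51 (37.5%), and promoters 3, coding exons 1, transcript ends 4 and 3′ UTRs 3. Of the 65 megabases with a Wt25 window, 34 had 1, 15 had 2 and 7 had 3. The fullest was the megabase with *Fbln2*, *Wnt7a* and *Slc6a6*, with 11 Wt25 and 2 AA10 windows. There, Wt25 windows lay in an intron of *Fbln2*, an extracellular matrix gene, in an intron of *Wnt7a*, a Wnt ligand of neural and limb development, and 63.5 kb from the *Wnt7a* start. Another 6, with 1 to 3 CpGs each, had their nearest start site at the non-coding genes *4930471M09Rik* and *1810044D09Rik*. Next came the megabase with *Creb3l2* and *Trim24*, with 9 Wt25 but also 18 AA10 windows, and that with *Dusp16*, with 6 and 10.

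Another Wt25 group lay upstream of *Cntnap2*. The deposited lists gave that gene 5 Wt25 windows beside 4 AA10 windows, and these 5 were 508 to 594 kb upstream of its start, with 1 or 2 CpGs each. None of them was inside the gene, where the windows were of AA10. Of the 4 megabases that held Wt25 windows alone, 1 had 4 windows near *Pot1a*, a telomere protein gene, and *Gm20756*, with 1 of them inside *Pot1a*. The others had 2 windows inside *Vgll4* and 1 inside *Hrh1*, 2 inside *Ctnna2*, and 1 inside *Mad2l1*. The single Wt25 block of 3 windows was intergenic, 25.6 kb from *Eps8*.

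Inside genes, Wt25 windows numbered at most 3. *Creb3l2*, a transcription factor of the secretory pathway, and *Dusp16*, a phosphatase of MAP kinases, had 3 each, all in introns. In *Creb3l2*, 2 of the 3 lay 3.25 and 3.45 kb from its start, and its AA10 window with 5 CpGs lay 1.05 kb from the start, so both directions occurred within a few kb. *Dusp16* had no AA10 window. *Etv6*, an Ets repressor, had 2 adjoining Wt25 windows with 3 and 10 CpGs at a transcript end and 2 AA10 windows in introns. *Igf2bp3*, an RNA-binding protein of early development, also had 2 of each direction.

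*Mdfic*, *Kdm5a*, *Dennd5b* and *Cald1* had 2 Wt25 windows and 1 AA10 window each, and *Vgll4* and *Gxylt2* had 2 Wt25 windows alone. In *Mdfic*, a regulator of MyoD-family factors, the Wt25 windows lay 0.040 and 1.64 kb from the start with 12 and 3 CpGs, its AA10 window lay in an intron, and a further AA10 window lay before the gene, in the promoter, 760 bp from a start site. In *Kdm5a*, an H3K4 demethylase, 1 Wt25 window with 6 CpGs was in the 3′ UTR. In *Braf*, *Frmd4b* and *Itpr1*, 1 Wt25 window stood beside 4, 4 and 3 AA10 windows, in *Dgki* and *Mgll* beside 2, and *Ccdc126*, *Ccser1*, *Mindy4*, *Slc25a13* and *Ttc26* had 1 window of each direction. The 21 genes with windows of both directions had a median length of 129.7 kb, against 72.3 kb for the genes with AA10 windows. On the other chromosomes, the 441 genes with both directions had a median of 136.8 kb.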

How the data were processed

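The deposited lists pool 3 5hmC-DIP libraries of each line. Per the study's methods, the authors aligned reads to GRCm38, compared bins of 200 bp with MEDIPS and annotated genes. They describe filtering out IgG-DIP sites, simple tandem repeats and low-complexity sequence, but some tandem repeats remained in the deposited windows. The authors' deposited lists hold genomic positions and a gene name, with no score or count, so depth and replicate error are not carried. The labels of the third replicates name other tools than those of the first 2, and no value within either set could be computed.

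Here, GRCm38 sequence, RefSeq curated transcripts (features, start sites) and GENCODE vM21 genes (windows inside genes) were used. A window took the feature of its midpoint, where promoters and transcript ends went before exons (coding, UTR, then non-coding), exons before introns, and the remainder was intergenic. Regions were windows of 1 list joined within 1 kb, with the feature at the region's midpoint. Shares were compared by two-sided Fisher's exact tests (scipy 1.17.1, Python 3.11.15), adjusted over 10 properties, called under 0.05. No column was left out for want of a sample.

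Named genes were the 20 coding genes with most AA10 and the 10 with most Wt25 windows, all with both directions, *Foxp1*, *Foxp2*, *Ctnna2*, *Cntnap2*, *Tet3*, and the hit members of 14 gene lists. Genes named at other places, the families and the printed windows said to be so were chosen after positions had been seen. The chromosome, genes and lists were chosen with earlier results of these data known. Alternatives were other joins, GENCODE transcripts, a wider promoter and other gene lengths. Leaving out dense runs from the feature comparisons was added after the data had been seen. Scripts were tested on simulated data, and 24 of 24 checks gave the known answer. Input DNA, RNA-seq, MNase and H3K27ac libraries were not analysed here. Some items are not reported here.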

Additional observations from a re-analysis of the deposited data

How the results depend on the processing

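The share of AA10 windows on chromosome 6 was 88.0%, 87.3% after joining and 87.7% outside dense runs. In the comparison of AA10 regions of chromosome 6 with those of other chromosomes, counting each window by itself gave 4 properties past the threshold instead of 0, and touching windows, joins of 10 kb, GENCODE transcripts, a wider promoter and leaving out dense runs gave 0. Odds ratios changed side with a join of 10 kb for promoter (0.766), intron (0.985), intergenic (1.11) and repeat-marked regions (1.02), with a promoter of 1 kb on both sides for intron (0.993), and without dense runs for intron (0.971) and intergenic regions (1.05), all with adjusted *P*-values of 0.628 or higher. The odds ratio for genes of at least 100 kb fell to 0.967 (*P* = 0.923) for genes with exactly 1 AA10 window. The cause was not tested. The 2 comparisons of Wt25 regions called 0 properties under every alternative run. No paired analysis was possible because the lists pool the replicates, and no replicate could be left out for the same reason. Without counts per window, no change could be sized.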
